A study of Homo sapiens with 8 samples.

Results

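ER sites at the promoters of long noncoding RNA (lncRNA) genes were examined in LY2 cells, an estrogen receptor-positive breast cancer line that grows despite endocrine therapy. An ER site was made by merging overlapping ER peaks of 4 libraries at a q-value under 0.05, on chromosomes 1 to 22 and X. A site was kept where the summit of its most significant peak lay within 1 kb of the start of a GENCODE lncRNA gene and over 1 kb from every protein-coding start. This gave 260 of 25365 ER sites, at 253 different lncRNA genes.

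ER binding was measured by chromatin immunoprecipitation and sequencing (ChIP-seq). After serum depletion in medium free of 4-hydroxytamoxifen, the cells were transfected for 48 hours with a non-targeting control siRNA (siCtrl) or with siRNA against CDK12 (siCDK12), and both conditions then received 1 µmol/L β-estradiol for 1 hour. Peak lists of siCtrl replicates 2 and 3 and of siCDK12 replicates 3 and 4 were compared, to ask whether ER occupancy at these promoters differed after CDK12 knockdown. Peak lists do not show CDK12 itself, so the knockdown was not checked here. No untreated cells and only this line were included, and nothing in the labels says that replicates came from separate cultures, so p-values cover only the spread between these libraries. The 4 lists held 12021, 4955, 4819 and 5224 peaks at this q-value, in the order given, and the number of reads is unknown. Of 7 textbook ER target genes (GREB1, TFF1, PGR, XBP1, NRIP1, IGFBP4 and FKBP4), 5 had a peak in the gene or within 10 kb in each siCtrl library, against 3 and 2 in the siCDK12 libraries.

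The estrogen receptor is a ligand-activated transcription factor that binds as a dimer to the estrogen response element (ERE), a palindrome of the half-site GGTCA, and it also reaches DNA through other factors such as AP-1. Many lncRNA genes are transcribed at low levels and in a tissue-restricted way, and in breast cancer cells estradiol changes the transcription of many noncoding RNAs from ER-bound promoters and enhancers. CDK12 is a kinase that phosphorylates the tail of RNA polymerase II during elongation.

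Several of the most significant lncRNA promoter sites carried repeated ERE half-sites. Their sequences are given as 121 bases centred on the summit, on the plus strand of GRCh38 (hg38), 5′ to 3′, with every half-site in capitals (GGTCA on the plus strand; on the minus strand it reads TGACC). The first is the only lncRNA promoter site with a peak in all 4 libraries, ENSG00000285821 was bound in both siCtrl libraries and carries the most half-sites among the sequences shown, and the others show a direct repeat and separate half-sites.
LINC01639 (window chr22:43400048-43400168): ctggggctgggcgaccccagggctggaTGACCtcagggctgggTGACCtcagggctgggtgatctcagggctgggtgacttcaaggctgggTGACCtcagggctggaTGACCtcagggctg
ENSG00000285821 (window chr7:157987378-157987498): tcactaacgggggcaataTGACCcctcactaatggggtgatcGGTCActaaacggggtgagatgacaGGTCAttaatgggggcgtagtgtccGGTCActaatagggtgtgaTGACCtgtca
ENSG00000230848 (window chr9:128058154-128058274): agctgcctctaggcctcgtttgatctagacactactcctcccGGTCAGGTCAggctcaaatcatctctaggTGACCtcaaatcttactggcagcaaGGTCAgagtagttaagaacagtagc
LINC01656 (window chr22:44443187-44443307): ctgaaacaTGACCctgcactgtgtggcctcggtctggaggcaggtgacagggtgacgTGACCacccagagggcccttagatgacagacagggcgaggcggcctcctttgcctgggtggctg

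The LINC01639 window repeated itself every 16 bases, with 65.9% identity to itself at that shift over 201 bases, and held 6 half-sites in those 201 bases, all in the same orientation among those printed. The ENSG00000285821 window held 7 half-sites and was 49.4% identical to itself at a shift of 25 bases. The ENSG00000230848 window held 4, a pair of them directly joined, and the LINC01656 window held 3. Over all lncRNA promoter sites, 4 of 260 (1.54%) reached at least 50% identity at a shift of 10 to 60 bases, against 0.371% of all ER sites and 1.20% of the 18756 lncRNA gene starts. Among sites with a peak in both siCtrl libraries, it was 2 of 16 lncRNA promoter sites (12.5%) and 4.05% of all ER sites.

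A contrasting window came from the site of ENSG00000247011, which had siCtrl folds of 24.1 and 13.7 but was GC-rich (75.6% GC, with 23 CpG in 201 bases) and held 1 half-site.
ENSG00000247011 (window chr17:50944471-50944591): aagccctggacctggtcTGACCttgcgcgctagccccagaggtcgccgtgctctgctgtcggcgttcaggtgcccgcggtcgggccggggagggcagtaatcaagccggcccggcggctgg

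An ERE was scored where the palindrome GGTCANNNTGACC was met with no more than 1 mismatch among 10 fixed bases, in the 100 bp to either side of the summit. It was present at 8 of 260 lncRNA promoter sites. All 8 sites had a siCtrl peak and 0 of 8 had a siCDK12 peak. Over all ER sites 484 of 25365 had an ERE, and how many of those had a siCDK12 peak was not counted. The 0 of 8 therefore has no comparison over all ER sites. The elements of 7 of the 8 sites are given on the plus strand, with the bases that match the palindrome in capitals and the spacer or a mismatch in lower case.
ENSG00000257496, chr12:46493892-46493904: GGTCAtgaTGACC
ENSG00000285821, chr7:157987388-157987400: GGgCAataTGACC
TBC1D3P1-DHX40P1, chr17:60018930-60018942: GGTCAcgcTcACC
ENSG00000290022, chr4:139842188-139842200: GGgCActgTGACC
ENSG00000287484, chr11:1772756-1772768: GGcCAccaTGACC
APOA1-AS, chr11:116836378-116836390: GGTCAcgcTGtCC
ENSG00000234426, chr6:88443034-88443046: GGTCAcccaGACC

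Counting positions from 1 at the first base of the element as printed, the mismatch was T3G at ENSG00000285821 and ENSG00000290022, G10C at TBC1D3P1-DHX40P1, T3C at ENSG00000287484, A11T at APOA1-AS and T9A at ENSG00000234426. The element of ENSG00000257496 was the perfect palindrome, 8 bp from the summit. Of the 8 sites, 5 had a peak in 1 library.

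lncRNA promoter sites with a peak were more numerous in siCtrl than in siCDK12. There were 122 in siCtrl replicate 2 and 66 in siCtrl replicate 3, against 48 in siCDK12 replicate 3 and 57 in siCDK12 replicate 4. The groups did not overlap, and the ratio of the means was 0.559, a siCDK12 minus siCtrl difference of -41.5 sites (two-sided exact permutation test, p = 0.333, the smallest p that 2 libraries against 2 allow). The siCtrl libraries differed from each other by more than siCtrl replicate 3 differed from either siCDK12 library, and the ratio was 0.788 without siCtrl replicate 2. Over all ER sites, the numbers with a peak were 12017 and 4952 in siCtrl against 4819 and 5222 in siCDK12. There too siCtrl replicate 2 had the most, while siCtrl replicate 3 had fewer than siCDK12 replicate 4. The larger mean number in siCtrl was thus not particular to lncRNA promoter sites.

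As a share of all ER sites in the same library, lncRNA promoter sites did not separate the conditions. The share was 1.02% (exact 95% interval 0.844 to 1.21) and 1.33% (1.03 to 1.69) in siCtrl, and 0.996% (0.735 to 1.32) and 1.09% (0.828 to 1.41) in siCDK12. The difference, siCDK12 minus siCtrl, was -0.13 percentage points (exact permutation p = 0.667), and it turned to 0.0287 without siCtrl replicate 3.

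Among the more significant peaks the ratio was further from 1, though the difference was fewer sites. Sites whose peak had a -log10 q of at least 5 numbered 21 and 11 in siCtrl and 3 and 1 in siCDK12, a difference of -14 and a ratio of 0.125 (exact permutation p = 0.333). At protein-coding promoters the same ratio was 0.0571, from 45 and 25 siCtrl sites against 3 and 1, and over all ER sites it was 0.187. These ratios were not tested against each other.

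**Figure D1:**
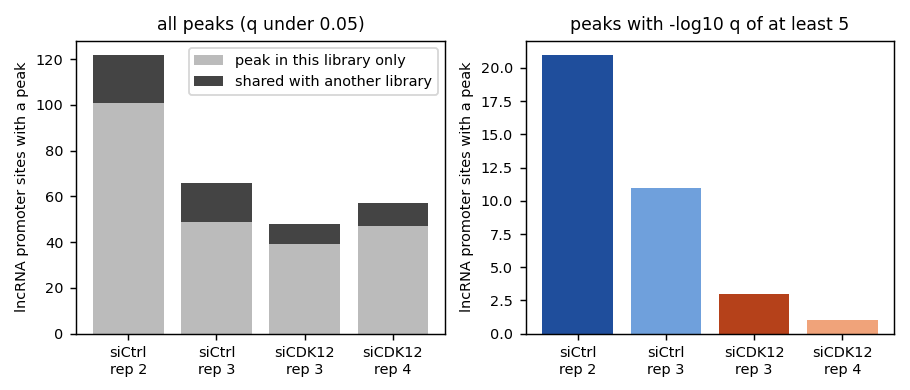
Number of lncRNA promoter sites with a peak in each of the 4 libraries (vertical axes), for all peaks split by whether another library shared the site (left) and for those reaching a -log10 q of 5 (right). The siCtrl libraries have 122 and 66 sites against 48 and 57, and 21 and 11 against 3 and 1 among the more significant peaks; in each library most sites had no peak elsewhere.

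Most lncRNA promoter sites were found in 1 library. These were 236 of 260 (90.8%), against 94.8% of all ER sites. Within the libraries, in the same order, 82.8%, 74.2%, 81.3% and 82.5% of the lncRNA promoter sites had a peak nowhere else, against 91.4%, 82.9%, 88.4% and 90.3% of all sites. Only 5 of the 236 were listed in another library with a higher q-value. Sites found in 1 library had a median -log10 q of 1.92 and a highest value of 14.1, while the 24 sites found in more had a median of 9.84.

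Recurrent siCtrl peaks, present in each siCtrl library, were found at 16 of 260 lncRNA promoter sites (6.15%), beside 2.63% of all ER sites, and recurrent siCDK12 peaks at 3 (1.15%), beside 0.84%. Per megabase of genome within reach of the rule, this was 0.533 sites in both siCtrl libraries at lncRNA starts, 0.518 at protein-coding starts and 0.218 elsewhere. When every site was counted, lncRNA starts had 8.67 sites per Mb, close to the 8.80 elsewhere and above the 5.46 at protein-coding starts. The density at lncRNA starts exceeded that elsewhere among sites that recurred between siCtrl libraries, from 16 sites, and not in the total.

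**Figure D2:**
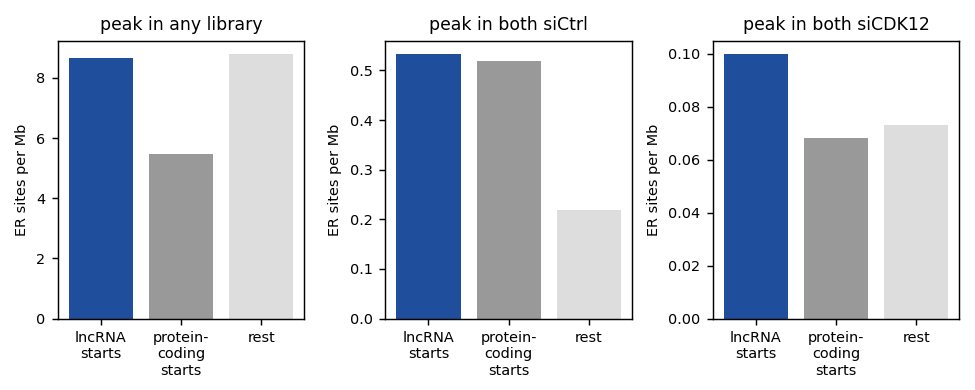
ER sites per megabase within 1 kb of lncRNA starts, at protein-coding starts and in the rest of the genome (horizontal axis), for sites with a peak in any library, in both siCtrl libraries and in both siCDK12 libraries, each panel with its own vertical scale. lncRNA starts have 8.67, 0.533 and 0.1 sites per Mb, the last from 3 sites.

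The site of LINC01639, an intergenic lncRNA gene, had the highest fold of all lncRNA promoter sites in each of the 4 libraries. It spans chr22:43399948-43400290, with its summit 223 bp upstream of the start, and the nearest protein-coding start, that of MPPED1, lies 11088 bp away. In siCtrl its fold enrichment over the local background was 34.7 and 22.7, and in siCDK12 it was 10.1 and 8.37. Both siCtrl values lay above both siCDK12 values, with means of 28.7 and 9.26 and a ratio of 0.322 (exact permutation p = 0.333, the smallest possible). The fold is (pileup + 1) over (background + 1), where the pileup is the number of fragments over the summit, so folds on a low background are compressed. The pileup was 96, 55, 25 and 20. Its rank by significance within each library was 10, 22, 14 and 16, so the site stood near the top of every list while its fold was lower in siCDK12.

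LINC01656, a gene on the same chromosome, had a site at chr22:44443110-44443383, 80 bp upstream of its start. Its fold was 20.2 and 9.57 in siCtrl and 4.43 in siCDK12 replicate 3, with pileups of 40, 36 and 12, and siCDK12 replicate 4 had no peak. Its rank was 65 and 97 in siCtrl and 1430 in siCDK12 replicate 3.

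ENSG00000247011 had a site at chr17:50944366-50944802 in its exon 1, 182 bp downstream of the start, shared with the lncRNA gene ENSG00000251665. Its fold was 24.1 and 13.7 in siCtrl, 4.13 in siCDK12 replicate 3 and 2.17 in siCDK12 replicate 4, where the q-value was above 0.05. Pileups of 82, 75, 35 and 20 followed the same order. The local background also moved, from 2.41 and 3.92 times the base level of the library in siCtrl to 6.28 and 7.35 times in siCDK12, and its part in the fold was not tested.

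Sites lost after knockdown, with a peak in each siCtrl library but not in siCDK12, numbered 8 of 260 (3.08%), beside 1.79% of all ER sites. Of the 16 lncRNA promoter sites with a peak in both siCtrl libraries, 50% were lost (exact 95% interval 24.7 to 75.3), against 68.2% of all ER sites and 68.4% of protein-coding promoter sites, both inside the interval. The share rests on the threshold: it was 83.3% at a -log10 q of at least 3, 80% at 5 and 88.9% at a fold of at least 5. Local background was called high above 3 times the base level of the library (the lowest background that many of its peaks share). Without sites of high local background there were 5 lost sites, 62.5% of those in each siCtrl library. The lost share of all ER sites was not computed under any of these settings, so the 68.2% is no comparison for them.

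Among the lost sites, ENSG00000285821 had siCtrl folds of 12.0 and 13.8 (pileups 33 and 31). It spans chr7:157987208-157987571, in intron 1 of the lncRNA gene and in intron 11 of PTPRN2, a gene on the opposite strand that encodes a receptor-type phosphatase of secretory granules. The folds of the replicates were close, and the site is the one with the 7 half-sites and an ERE shown above.

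ENSG00000230848, the lost site with the direct repeat, had folds of 9.57 and 8.62 (chr9:128058104-128058340, 852 bp upstream of the start). ENSG00000289423 had folds of 9.64 and 7.12 in exon 1 of the gene (chr16:86931347-86931556), 355075 bp from the start of FOXL1, which encodes a forkhead factor. ENSG00000224794 had folds of 8.54 and 6.53 in its intron 1 (chr22:39292962-39293135), 27347 bp from the start of RPL3, a ribosomal protein gene. In all 3, siCtrl replicate 2 had the higher fold.

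The remaining lost sites outside chromosome 8 lay at ENSG00000269940 and TBC1D3P1-DHX40P1. The former had folds of 8.28 and 4.28 inside intron 15 of KLC1, the gene of a kinesin light chain on the same strand (chr14:103693528-103693728). The latter had folds of 4.44 and 5.26 in its intron 1 (chr17:60018821-60019254), with a local background of 11.7 and 6.7 times the base level.

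The other lost sites lay on chromosome 8, at LINC00208 and ENSG00000286985. LINC00208 (chr8:11575575-11575951, 513 bp upstream of its start) had folds of 6.68 and 20.1 in siCtrl, and it was the only lost site listed in a siCDK12 library with q above 0.05, at a fold of 3.74 in replicate 3. ENSG00000286985 (chr8:11631344-11631508, 812 bp upstream) had folds of 6.38 and 4.60, held an ERE, and lay 45566 bp from the start of GATA4, a zinc-finger transcription factor gene. DLGAP2-AS1 on the same chromosome (chr8:1623238-1623713) kept a peak in siCDK12 replicate 4, with a fold of 4.12 against 9.93 and 6.03 in siCtrl, and held 8 half-sites, the most of any lncRNA promoter site, in a sequence 80.6% identical to itself at a shift of 21 bases.

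Of the 8 lncRNA promoter sites that were bound in each siCtrl library and kept a siCDK12 peak, 6 had both siCtrl folds above every siCDK12 fold (75%), beside 68.4% of all such ER sites. The groups overlapped at ENSG00000286373 (chr10:63630659-63630877, exon 1), with folds of 5.60 and 3.94 in siCtrl and 4.36 in siCDK12 replicate 3, and at the upstream site of ENSG00000288946 (chr20:57157095-57157366), with 2.34 and 1.91 against 2.25. ADAMTS9-AS1 (chr3:64561424-64561890), antisense to a metalloprotease gene, had folds of 2.57 and 2.44 against 2.26, a narrow gap, on a background of 14.1 to 16.5 times the base level.

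**Figure D3:**
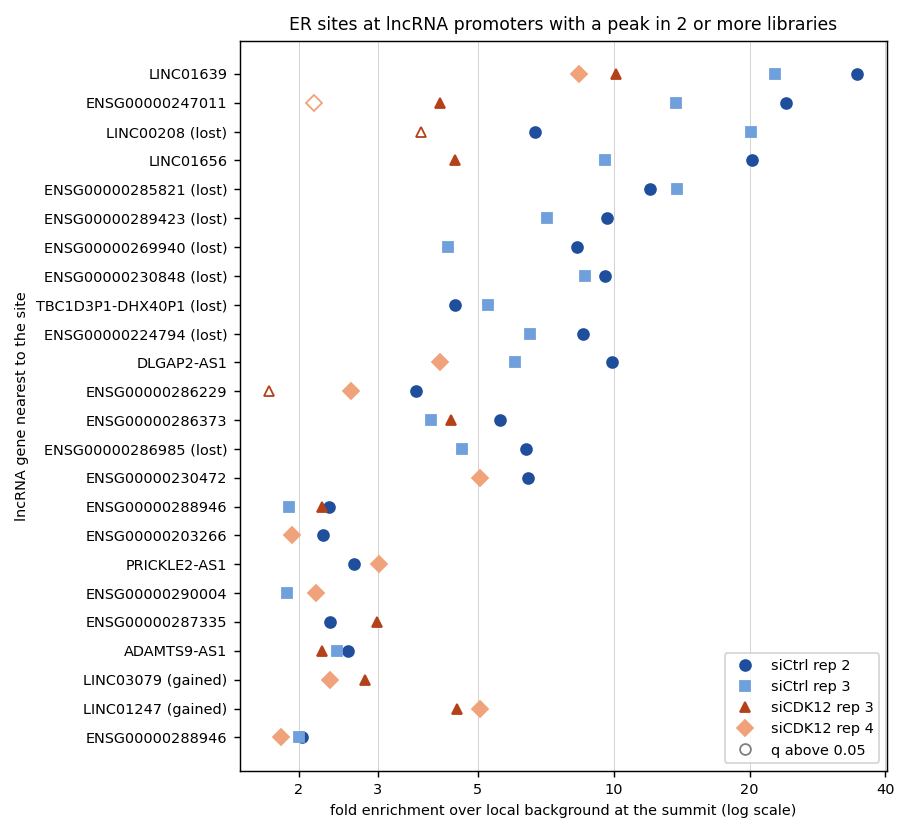
Fold enrichment over the local background (horizontal axis, log scale) at the 24 lncRNA promoter sites with a peak in 2 or more libraries, ordered by their highest significance, with 1 point per library and open points where q was above 0.05. At LINC01639 the siCtrl points (34.7 and 22.7) lie right of the siCDK12 points (10.1 and 8.37). Several of the lower rows have folds near 2, but not LINC01247 (4.48 and 5.04).

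Sites gained after knockdown, with a peak in each siCDK12 library but not in siCtrl, numbered 2 of 260 (0.769%), beside 0.343% of all ER sites. LINC01247 (chr2:6375795-6376022, 534 bp upstream) had folds of 4.48 and 5.04 from pileups of 9 and 10 fragments. LINC03079 (chr20:48073732-48074021, 15 bp upstream) had folds of 2.81 and 2.35 on a background of 8.46 and 13.9 times the base level. Neither reached a -log10 q of 3 in either library, and the highest significance in a siCDK12 library outside LINC01639 and ENSG00000247011 was at ENSG00000272905 (chr7:32845550-32845723, exon 1), a site of siCDK12 replicate 3 alone with a fold of 5.42 and a -log10 q of 5.10.

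Most of the peaks rested on few fragments. At lncRNA promoter sites the median pileup was 9.5, 11, 10 and 11 fragments in the order of libraries given at the outset, and the median fold was 4.29, 4.33, 4.09 and 4.12. Within a library the median fold differed from that of protein-coding promoter sites by -0.0927, 0.0408, 0.0449 and 0, a mean of -0.00175 (exact sign-flip permutation over 4 libraries, p = 1.0).

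Summits lay closest to the start more often than far from it. Of the 260, 89 lay within 250 bp, and 61, 55 and 55 in the next 3 steps of 250 bp. Among the 24 sites found in 2 or more libraries, 12 lay within 250 bp. Upstream summits numbered 143 and downstream summits 117.

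**Figure D4:**
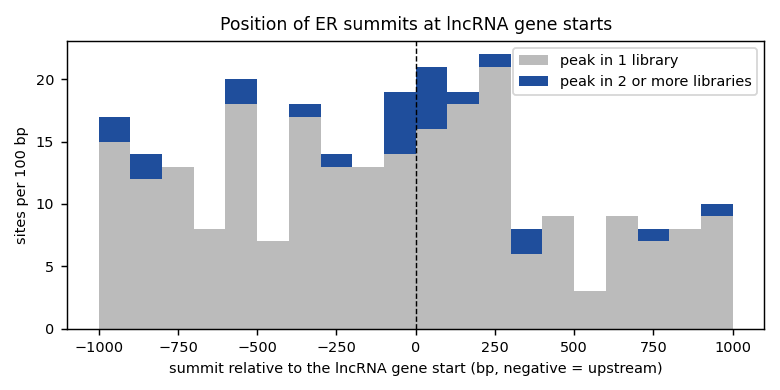
Number of lncRNA promoter sites per 100 bp (vertical axis) by the position of the summit relative to the lncRNA gene start (horizontal axis, negative upstream), for sites in 1 library (grey) and in 2 or more (blue). The 89 sites within 250 bp of the start form the densest stretch.

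Most of the lncRNA genes had no name beyond their identifier. These were 195 of 253 genes (77.1%), against 72.7% of the 15230 lncRNA genes that start over 1 kb from every protein-coding start, with 31 LINC genes (12.3%, against 14.3%) and 19 antisense genes (7.51%, against 7.11%). Of the sites, 91 (35%) lay inside a protein-coding gene, 88 of them inside only 1. Of the 15230 starts, 4868 (32.0%) lay inside 1 protein-coding gene. For the 88 sites inside 1 such gene, the lncRNA lay on the opposite strand at 66 (75%), against 74.2% of lncRNA starts so placed. Of 47 lncRNA genes, listed by hand as known in breast cancer or estrogen signalling and held by the annotation, 1 had a site. This stands beside 253 of all 18756 lncRNA genes, of which 15230 start over 1 kb from every protein-coding start. How many of the 47 do so was not counted, so the shares may be of unlike sets. The 1 gene was EPB41L4A-AS1, with a fold of 4.04 in siCDK12 replicate 3 alone.

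EREs were more frequent at the summits than beside them. They were found at 3.08% of the lncRNA promoter sites (exact 95% interval 1.34 to 5.97), at 0.385% of windows 1000 bp away, at 0.549% of all lncRNA starts and at 1.91% of all ER sites. Around the summit of each library's own peak, siCtrl had a share of 5.74% and 3.03% and both siCDK12 libraries had 0 (of 48 and 57), a difference of -4.38 points (exact permutation p = 0.333). At protein-coding promoter sites the shares were also lower in siCDK12, with 7.73% and 8.49% in siCtrl and 4.48% and 1.23% in siCDK12. At lncRNA promoter sites, the 0 in both siCDK12 libraries did not hold within 2 kb of a start, where siCDK12 replicate 3 had 1.10%. Both the 0 and the gap also depend on the mismatches allowed. With at most 2, the shares were 22.95% and 24.2% in siCtrl and 8.33% and 19.3% in siCDK12, a difference of -9.78 points, and with none the difference was -0.41 points (exact permutation p = 1.0).

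With at most 1 mismatch, the share at lncRNA promoter sites was below that at protein-coding promoter sites in 4 of 4 libraries, with a mean lncRNA minus protein-coding difference of -3.29 points (exact sign-flip permutation p = 0.125, the smallest possible), and of -0.88 points without sites of high local background, where both siCDK12 differences were 0. Among stronger peaks the mean difference stayed negative, at -5.51 points at a -log10 q of at least 3, -10.2 at 5 and -5.18 at a fold of at least 5. The libraries did not all follow, as siCtrl replicate 2 had 0.187, 6.35 and 3.53 points and siCDK12 replicate 4 had 0 each time. In siCtrl replicate 3 the differences were -11.1, -13.8 and -14.3, and in siCDK12 replicate 3 they were -11.1, -33.3 and -10. At a -log10 q of at least 5, the siCDK12 values rest on 3 and 1 lncRNA promoter sites.

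Half-sites were common, above all at recurrent siCtrl sites, whether at lncRNA promoters or not. They were found at 39.6% of the lncRNA promoter sites, 36.9% of all ER sites and 29.0% of lncRNA starts. Among the 16 sites in both siCtrl libraries, 13 had a half-site (81.3%), against 72.3% of all ER sites and 81.6% of protein-coding promoter sites that recurred in this way. At least 2 half-sites were present at 8 of the 16 (50%), against 45.9% of recurrent ER sites and 10.4% of all lncRNA promoter sites. An ERE was present at 3 of the 16 (18.8%), against 23.7% at protein-coding promoter sites and 26.6% elsewhere, and the interval of 4.05 to 45.6% covers both.

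The other motifs were searched on both strands in the same 201 bases. The AP-1 motif TGANTCA was at 10.4% of the lncRNA promoter sites (6.96 to 14.7), against 6.49% of all ER sites and 6.88% of lncRNA starts. The GC box GGGCGG, a promoter motif bound by SP factors, was at 9.23%, against 4.56% of all ER sites and 18.6% of lncRNA starts. It was at 12.25% of protein-coding promoter sites. The lncRNA starts are all 18756, those near protein-coding starts included, and their windows are centred on the start. The forkhead motif (TGTTTAC, with the form TGTTTGC also counted), the GATA motif (AGATAA) and the TATA box (TATAAA) were at 5.77%, 8.85% and 6.92%, against 5.76%, 9.09% and 10.2% of lncRNA starts. A match describes letters in the window and no more.

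**Figure D5:**
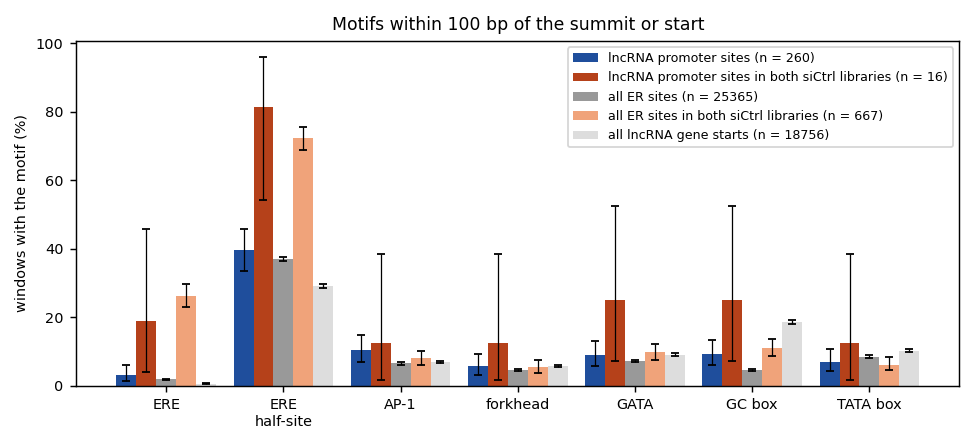
Percent of 201-base windows that hold each motif (vertical axis), for all lncRNA promoter sites, those in both siCtrl libraries, all ER sites, those in both siCtrl libraries and all lncRNA gene starts, with exact 95% intervals as error bars. The half-site bar stands at 39.6% for all lncRNA promoter sites and at 81.3% for the 16 in both siCtrl libraries, beside 72.3% for all ER sites in both.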

How the data were processed

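ER ChIP-seq peak lists of 4 LY2 libraries, 2 per condition, were used. The 4 input libraries and the RNA-seq were not analysed here. The authors aligned 50 bp reads to GRCh38 with BWA and called peaks per library with MACS2. One divergent replicate per condition was excluded by the authors. In the deposited lists, the fold is a ratio, (summit pileup + 1) over (local background + 1), significance is a -log10 p-value and q-value, and the score is 10 times the former, cut to a whole number. Libraries were not normalized to each other, and the lists also held peaks with q above 0.05, which were left out.

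Peaks with a -log10 q above 1.301 were merged by 1 bp overlap. Starts were those of GENCODE release 44. Protein-coding starts were those of the genes and of all their protein-coding transcripts. The deposited fold and p-value were solved for pileup and background, with whole pileups for at least 99.9% of peaks; the base level is the lowest background that at least 50 peaks share. Intervals are exact Clopper-Pearson intervals and cover counting error only. The authors' DiffBind step works on reads and was not run here. Named sites were those with a peak in both libraries of a condition, the 3 most significant in each library, and those of a list of known lncRNAs; element sites, sites in 1 library and those of other genes were named after their values were seen. The sites and lists were chosen with earlier results of these data known. Functions were tested on simulated data. Scripts used pysam 0.24.0, SciPy 1.17.1, pandas 2.3.3 and NumPy 2.4.6 in Python 3.11.15.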

Additional observations from a re-analysis of the deposited data

How the results depend on the processing

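Of 118 values under alternatives, 91 kept their direction and, for counts, stayed within 1.5 times. Lost sites numbered 4 within 500 bp of the start, 18 within 2 kb and 5 without sites of high local background. Gained sites numbered 1 within 500 bp and 1 without high background, and 0 at a -log10 q of at least 3, at 5, or at a fold of at least 5. The lost share was 83.3%, 80% and 88.9% under those 3 thresholds, with none computed over all ER sites. With each library left out in turn, lost sites ranged from 10 to 109, gained sites from 2 to 49 and the lost share from 62.5% to 89.3%, as a condition with 1 library needs a peak in that library only. The fold against protein-coding promoters, near 0, turned positive at a fold of at least 5 (0.461), with the peaks as deposited (0.0434), within 500 bp (0.0254), with every lncRNA transcript start (0.00125), with windows of 100 bp around summits (0.0112) and without high background (0.0459), and ranged from -0.0173 to 0.0297 with each library left out. The share of peaks ranged from -0.298 to 0.0287 in the same way. The cause of these turns was not tested. The ratio of the number of sites stayed under 1 in every alternative, 0.125 to 0.788. The gap between the groups did not hold within 500 bp of the start. There the numbers were 76 and 33 in siCtrl against 33 and 31 in siCDK12 (exact permutation p = 0.667). No paired analysis was possible because siCtrl and siCDK12 have a single number, 3, in common. Read depth was unknown, and with 2 libraries per condition no permutation could reach p = 0.05.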

Other observations

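lncRNA promoter sites with a high local background were concentrated on chromosome 20. Of the 19 lncRNA promoter sites there, 14 had a background over 3 times the base level in a library with a peak. So had 34 of all 260 (13.1%), beside 11.0% of all ER sites. Among the 16 lncRNA promoter sites in both siCtrl libraries it was 8 (50%), beside 56.7% of all ER sites in both. Among the 24 found in 2 or more libraries it was 14. The share among all 1397 ER sites of chromosome 20 was not computed, so the 14 of 19 has no comparison on its own chromosome. The 7 chromosome 20 sites found in 2 or more libraries had folds of 1.83 to 3.64 on backgrounds of 8.46 to 30.2 times the base level, 3 of the 7 had a half-site and 0 had an ERE. Both sites of ENSG00000288946 and that of ENSG00000290004 (chr20:57162313-57162547, folds 1.89 in siCtrl replicate 3 and 2.19 in siCDK12 replicate 4) were among them.

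The sites named next, of the 8 that reached a -log10 q of 5 in 1 library only, were chosen after their values were seen. The most significant was that of ENSG00000290022 (chr4:139842066-139842283), in intron 2 of MAML3, a Notch coactivator gene, with a fold of 9.10 in siCtrl replicate 3 and an ERE. ENSG00000287484 (chr11:1772651-1772831), 8186 bp from the start of the cathepsin D gene CTSD, had a fold of 8.44 in siCtrl replicate 2, an ERE and 2 AP-1 motifs. APOA1-AS, antisense to the apolipoprotein gene APOA1, had a fold of 6.38 in the same library.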
